A study of Mus musculus with 12 samples.

Results

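The small proline-rich proteins were followed here at the RNA level in mouse skin with and without imiquimod (IMQ) treatment. The 10 genes considered, Sprr1a, Sprr1b, Sprr2b, Sprr2d, Sprr2e, Sprr2f, Sprr2h, Sprr2i, Sprr2k and Sprr3, were taken by name. Of these, 8 had a probe set annotated to them alone and were measured, among 18193 genes measured on the arrays in all. Sprr2b and Sprr2e had no such set and were not analysed here.

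RNA of whole skin was hybridised to 12 Affymetrix mouse arrays, 3 per group, which the labels call biological replicates. IMQ-treated AhR-/- skin (KO), taken on day 2 of treatment, was compared with untreated AhR-/- skin of day 0, and IMQ-treated AhR+/- skin (HET) with untreated AhR+/- skin. The mice lacked the aryl hydrocarbon receptor (AhR), a ligand-activated transcription factor, in all tissues, and their AhR+/- littermates, which carry 1 intact allele, served as controls, so no group had both alleles intact. IMQ, a Toll-like receptor agonist, was applied to shaved back skin as Aldara cream, and the untreated mice received no cream, so the drug, its cream and the handling cannot be told apart. Values are log2 signals made by robust multi-array average (RMA), so that a difference of 1 is a doubling of signal.

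Small proline-rich proteins are precursors of the cornified envelope, the protein shell that replaces the plasma membrane of a keratinocyte as it becomes a dead cell of the outer skin. Transglutaminases cross-link them, through glutamine and lysine residues at their ends, to larger envelope proteins such as loricrin and involucrin. Their genes lie side by side in the epidermal differentiation complex. They are known as genes that keratinocytes switch on after wounding, irritation or ultraviolet light and in psoriasis, and transcription factors of the AP-1 family, binding close to their start sites, are among their best described regulators. RNA was taken from the whole tissue, so a higher signal can come from more cells that express a gene or from more RNA per cell, and these cannot be told apart.

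In the RefSeq gene table the genes lie on chromosome 3 in the order Sprr2b, Sprr2d, Sprr2e, Sprr2f, Sprr2h, Sprr2i, Sprr2k, Sprr1b, Sprr3 and Sprr1a. The stretch of 250 bases before the transcript start (RefSeq promoters, build GRCm38.p6, 10 of 10 genes matched) was searched on both strands for 4 motifs. These were the AP-1 site TGANTCA, the octamer ATTTGCAT bound by POU factors, the TATA box TATAAA, and GCGTG, the core of the xenobiotic response element (XRE) that AhR binds; none of the matches overlapped another. A TATA box was present in 10 of 10 genes, against 12.4% of all 32851 promoters in the table. An AP-1 match was present in 9 of 10 genes, against 6.75% of all promoters. The octamer was present in 7 of 7 Sprr2 genes and in no other of the 10 genes, against 1.6% of all promoters. The XRE core was present in 2 of 10 genes, Sprr2f and Sprr2i, against 28.2% of all promoters. A match describes the letters and is not a shown binding site. Aligned end to end, the Sprr2 promoters were 57.0% to 88.9% identical to each other, so their matches are not independent counts. The sequences of 6 genes are given, 5′ to 3′ on the strand of the gene, because the genes they precede differed most in the measurements that follow: Sprr1b, Sprr2d and Sprr2h had large differences in signal after IMQ, Sprr2k a small one, and Sprr1a and Sprr3 were not called. Capitals mark the AP-1, octamer and TATA matches.
Sprr1b (chr3:92438780-92439029, minus strand): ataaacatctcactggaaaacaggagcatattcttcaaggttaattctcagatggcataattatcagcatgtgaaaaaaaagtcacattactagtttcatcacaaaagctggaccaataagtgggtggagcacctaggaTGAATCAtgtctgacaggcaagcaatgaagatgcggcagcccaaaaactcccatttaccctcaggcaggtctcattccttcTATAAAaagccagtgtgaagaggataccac
Sprr2d (chr3:92338890-92339139, plus strand): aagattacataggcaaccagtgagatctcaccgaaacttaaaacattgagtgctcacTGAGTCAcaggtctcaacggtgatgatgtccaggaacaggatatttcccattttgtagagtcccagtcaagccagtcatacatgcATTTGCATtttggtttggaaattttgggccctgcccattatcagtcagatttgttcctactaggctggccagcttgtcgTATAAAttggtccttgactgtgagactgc
Sprr2h (chr3:92385435-92385684, plus strand): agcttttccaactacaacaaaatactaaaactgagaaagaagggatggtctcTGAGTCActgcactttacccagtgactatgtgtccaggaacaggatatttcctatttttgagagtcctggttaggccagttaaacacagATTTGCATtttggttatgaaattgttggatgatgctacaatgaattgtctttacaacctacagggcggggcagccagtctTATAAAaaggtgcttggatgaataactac
Sprr2k (chr3:92432332-92432581, plus strand): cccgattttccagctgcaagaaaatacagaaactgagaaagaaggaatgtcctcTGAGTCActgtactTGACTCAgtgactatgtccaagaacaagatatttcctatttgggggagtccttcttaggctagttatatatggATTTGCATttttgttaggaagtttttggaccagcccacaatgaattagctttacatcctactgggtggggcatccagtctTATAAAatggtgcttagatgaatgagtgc
Sprr1a (chr3:92485882-92486131, minus strand): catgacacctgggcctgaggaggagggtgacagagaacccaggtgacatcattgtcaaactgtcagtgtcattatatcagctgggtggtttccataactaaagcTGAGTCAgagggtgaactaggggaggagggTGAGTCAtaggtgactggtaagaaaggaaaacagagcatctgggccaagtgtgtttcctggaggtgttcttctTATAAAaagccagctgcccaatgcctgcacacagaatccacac
Sprr3 (chr3:92458721-92458970, minus strand): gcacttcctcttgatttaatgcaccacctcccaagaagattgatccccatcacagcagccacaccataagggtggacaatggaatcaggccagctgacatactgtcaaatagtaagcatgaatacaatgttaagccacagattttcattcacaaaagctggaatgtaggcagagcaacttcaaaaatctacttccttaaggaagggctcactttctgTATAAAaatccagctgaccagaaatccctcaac

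In the 7 Sprr2 promoters the 3 motifs kept nearly the same places, with the octamer between 112 and 101 bases and the TATA box between 29 and 24 bases before the start. Sprr2k had 2 AP-1 matches, 196 and 182 bases before the start, of which the first has its counterpart in Sprr2h, 198 bases before the start. Sprr1a also had 2 AP-1 matches, 146 and 116 bases before the start, and Sprr1b had 1, at 111 bases. Sprr3 had none of these letters in the window, which says nothing about the factor. Aligned end to end, Sprr2h and Sprr2k were 80.6% identical, Sprr2d and Sprr2e 88.9%, and Sprr1a and Sprr1b 52.2%. In KO the log2 difference after IMQ was 7.42 in Sprr2h and 1.28 in Sprr2k, as given further on. The Sprr2 transcripts themselves are close copies of each other, and the probe set of Sprr2h is one of those that Affymetrix marks as matching several transcripts of similar sequence. Its values, and to a lesser degree those of the other Sprr2 sets, may therefore hold signal from neighbouring copies.

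**Figure D1:**
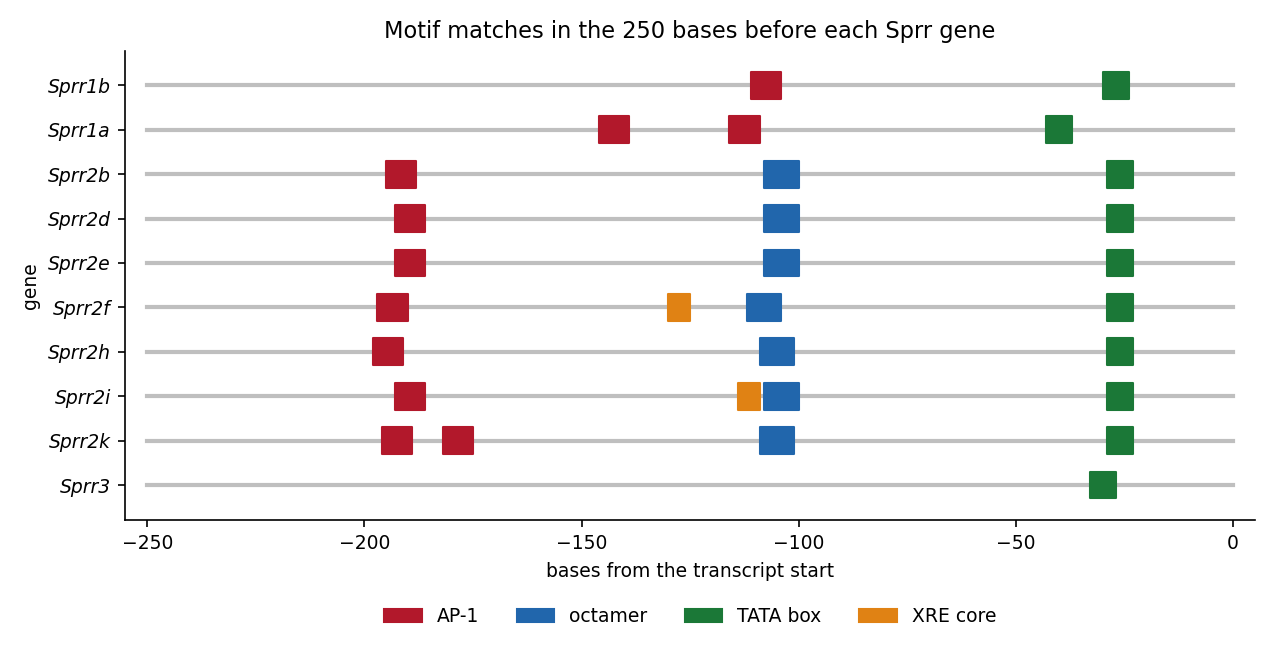
Positions of the motif matches (coloured blocks, to scale) in the 250 bases before the transcript start of the 10 Sprr genes, in bases from the start. The 7 Sprr2 genes share an AP-1 match, an octamer and a TATA box at nearly the same places, Sprr2k has a second AP-1 match, and Sprr3 has a TATA box alone.

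Over all arrays, the median signal of the genes lay between 7.38 and 7.56. The Gapdh control set at the 3' end exceeded the one at the 5' end, an excess that grows as RNA is less intact. On the log2 scale it was 1.17 and 1.52 in KO IMQ replicates 1 and 2, against 0.28 in replicate 3 and 0.14 to 0.53 in the other 9 arrays. The actin control sets gave 1.334 and 1.584 in KO IMQ replicates 1 and 2, against 0.584 in replicate 3 and 0.611 to 1.085 in the other 9 arrays. The 2 probe sets of Ahr had signals of 9.07 to 9.87 and 6.0 to 6.12 in KO IMQ skin, against 9.79 to 10.27 and 5.56 to 5.99 in HET IMQ skin. In untreated skin they had 11.29 to 11.44 and 5.91 to 6.19 in KO, against 10.11 to 11.30 and 5.81 to 6.31 in HET. Since where these probes lie relative to the deleted part was not given in the sources used here, they check no label. Keratins of the basal layer, Krt5, Krt14 and Krt15, had a mean signal of 12.6 to 13.78 in the 12 arrays, as skin should. A list of 13 hair follicle genes, of which 10 encode keratins, averaged 11.52 in HET untreated replicate 2, against 7.74 and 7.69 in replicates 1 and 3. That array also had the highest signal of its group for 6 of the 8 Sprr genes, and the part of hair in this was not tested.

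The first question was how these genes respond to IMQ. In AhR-/- skin 6 of the 8 measured genes, Sprr1b, Sprr2d, Sprr2h, Sprr2f, Sprr2i and Sprr2k, were called higher after IMQ, where a call needed a limma p below 0.05 after adjustment over all genes and a change of 1.5-fold or more. Of all genes 10.6% were called higher and 12.1% lower, and none of the 8 was called lower. The median log2 difference of the 8 genes was 6.82, against 0.07 over all genes. In AhR+/- skin the 6 called genes were also these, where 5.22% of all genes were called higher and 3.83% lower, and the median log2 difference was 6.28, against -0.01 over all genes. By the size of the log2 difference, 5 of the genes stood among the 20 highest of 18193 in AhR-/- skin and among the 15 highest in AhR+/- skin.

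Sprr1b, whose product is also called cornifin and is a standard marker of squamous differentiation, had the widest difference. Its signal was 13.21, 13.17 and 12.90 in KO IMQ skin, against 3.31, 3.19 and 3.36 in untreated KO skin. It was 13.05, 12.48 and 12.43 in HET IMQ skin, against 3.76, 3.23 and 3.65 in untreated HET skin. All 6 treated arrays lay far above all 6 untreated ones, and the arrays within a group differed by at most 0.62. The log2 difference was 9.81 ± 0.19 in KO (SE, limma adjusted p = 1.37e-11), a fold change of 895 with a 95% interval of 671 to 1190. In HET it was 9.11 ± 0.19 (SE, limma adjusted p = 3.42e-11), a fold change of 552 with a 95% interval of 414 to 736. It ranked 1 of 18193 genes in KO and 2 of 18193 in HET. The lowest signal of any probe set on any array was 2.18, and 9 genes of photoreceptors, not expected in skin, had means of 4.84 to 5.34. The untreated signals were 3.19 to 3.76 in Sprr1b, and they were also low in Sprr2f, at 3.80 to 4.52, and in Sprr2i, at 3.90 to 5.21. Single values of the photoreceptor genes reached 7.12, and no untreated signal of Sprr2d, Sprr2h or Sprr2k and no signal of Sprr3 was above that. No detection calls were used. Whether any of the genes but Sprr1a was above background in untreated skin was therefore not assessed, nor was it for Sprr3 after IMQ. Fold changes from such signals are rough.

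The Sprr2 proteins are the shorter, more numerous members of the family, and in the mouse epidermis several of their genes are known to be switched on by stress. Sprr2d had signals of 14.07, 13.04 and 12.78 in KO IMQ skin, against 5.81, 5.77 and 6.35 in untreated KO skin. In HET it had 13.80, 12.94 and 13.15 after IMQ, against 5.32, 6.37 and 5.89 untreated. The treated and untreated arrays did not overlap in either genotype. The log2 difference was 7.32 ± 0.35 in KO (SE, limma adjusted p = 1.45e-07), a 160-fold change, and 7.44 ± 0.35 in HET (SE, limma adjusted p = 1.44e-07), a 173-fold change.

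Sprr2h, the gene whose probe set may also take up related transcripts, had signals of 14, 13.50 and 12.98 in KO IMQ skin, against 5.95, 6.82 and 5.44 in untreated KO skin. In HET it had 13.45, 12.95 and 12.99 after IMQ, against 7.02, 6.40 and 5.04 untreated. Here the untreated arrays were the more scattered, with a range of 1.97 in HET, and they still lay below every treated array. In log2 terms the difference was 7.42 ± 0.46 in KO and 6.98 ± 0.46 in HET (SE, limma adjusted p = 8.06e-07 and 2.35e-06).

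Sprr2f, known from the uterus as an oestrogen-responsive gene, and Sprr2i behaved alike in one respect: in both, replicate 1 of each IMQ group stood above the other arrays of its group. Sprr2f had 12.70, 10.46 and 10.55 in KO IMQ skin, against 4.12, 3.80 and 4.52 in untreated KO skin. In HET it had 11.71, 10.42 and 10.36 after IMQ, against 4.37, 4.52 and 4.36 untreated. The untreated values were close together and the treated ones spread over 2.24 in KO and 1.34 in HET. Sprr2i had 12.95, 10.56 and 9.94 in KO IMQ skin, against 4.07, 4.63 and 5.07 in untreated KO skin. In HET it had 11.90, 10.30 and 10 after IMQ, against 3.90, 5.21 and 4.66 untreated. The groups did not overlap, and the range of 3.01 in KO IMQ skin was the widest of the treated groups among the 8 genes. The log2 difference of Sprr2f was 7.09 ± 0.51 in KO and 6.41 ± 0.51 in HET (SE, limma adjusted p = 2.31e-06 and 1.29e-05). That of Sprr2i was 6.56 ± 0.68 in KO and 6.15 ± 0.68 in HET (SE, limma adjusted p = 3.85e-05 and 0.000179).

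Sprr2k, the Sprr2 gene next to Sprr1b, was called with a far smaller difference. Its signal was 8.48, 7.58 and 7.84 in KO IMQ skin, against 6.54, 6.81 and 6.70 in untreated KO skin. In HET it was 8.11, 7.49 and 7.56 after IMQ, against 6.50, 6.56 and 6.33 untreated. All treated arrays were again above all untreated ones, by 0.76 at the least in KO and 0.93 in HET. IMQ-treated skin exceeded untreated skin by 1.28 ± 0.23 in KO (SE, limma adjusted p = 0.00132), a 2.44-fold change with a 95% interval of 1.74 to 3.42. In HET it was 1.25 ± 0.23 (SE, limma adjusted p = 0.0044), a 2.39-fold change with a 95% interval of 1.7 to 3.35. By the rank product, the test of the study's methods, Sprr2k was not called in either genotype, with an estimated share of false positives of 0.0891 in KO and 0.0761 in HET.

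Sprr1a, a family member also known as an injury-induced gene in nerve and heart, had signals over 10 in every array. Its signal was 13.48, 13.54 and 13.09 in KO IMQ skin, against 12.67, 12.21 and 11.60 in untreated KO skin. In HET it was 12.93, 12.59 and 12.41 after IMQ, against 12.71, 13.23 and 10.06 untreated. In KO every treated array was above every untreated one, as for 21.7% of all genes, whereas in HET the untreated arrays lay on both sides of the treated ones and replicate 3 stood 2.65 below the next. The log2 difference was 1.21 ± 0.61 in KO and 0.64 ± 0.61 in HET (SE, limma adjusted p = 0.16 and 0.58), and neither was called. Untreated HET replicate 3 entered the HET difference directly and the KO test only through the spread that the 4 groups share. Without it the HET difference was -0.33 (limma adjusted p = 0.605), while the KO difference was still 1.21 and was called (limma adjusted p = 0.00575). The KO difference was also called when only the 6 KO arrays were fitted (limma adjusted p = 0.00488) and with array weights, at 1.11 (limma adjusted p = 0.0431).

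Sprr3, best known from the oesophagus and other internal stratified epithelia, differed least, and whether it was detected was not assessed. Its signal was 6.12, 6.0 and 6.08 in KO IMQ skin, against 5.47, 5.51 and 5.77 in untreated KO skin. In HET it was 6.03, 5.59 and 5.78 after IMQ, against 5.44, 5.96 and 5.74 untreated. The KO groups did not overlap and the HET groups did. The log2 difference was 0.48 ± 0.17 in KO (SE, limma adjusted p = 0.0459), which lies under the fold minimum, and 0.09 ± 0.17 in HET (SE, limma adjusted p = 0.798). Of 4 keratins of internal stratified epithelia, 0 were called higher and 1 lower in KO, and 0 in either direction in HET. Counted over the family, the treated and untreated arrays did not overlap for 8 of 8 genes in KO, where 21.7% of all genes were higher without overlap, and for 6 of 8 in HET, where 15.4% were.

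**Figure D2:**
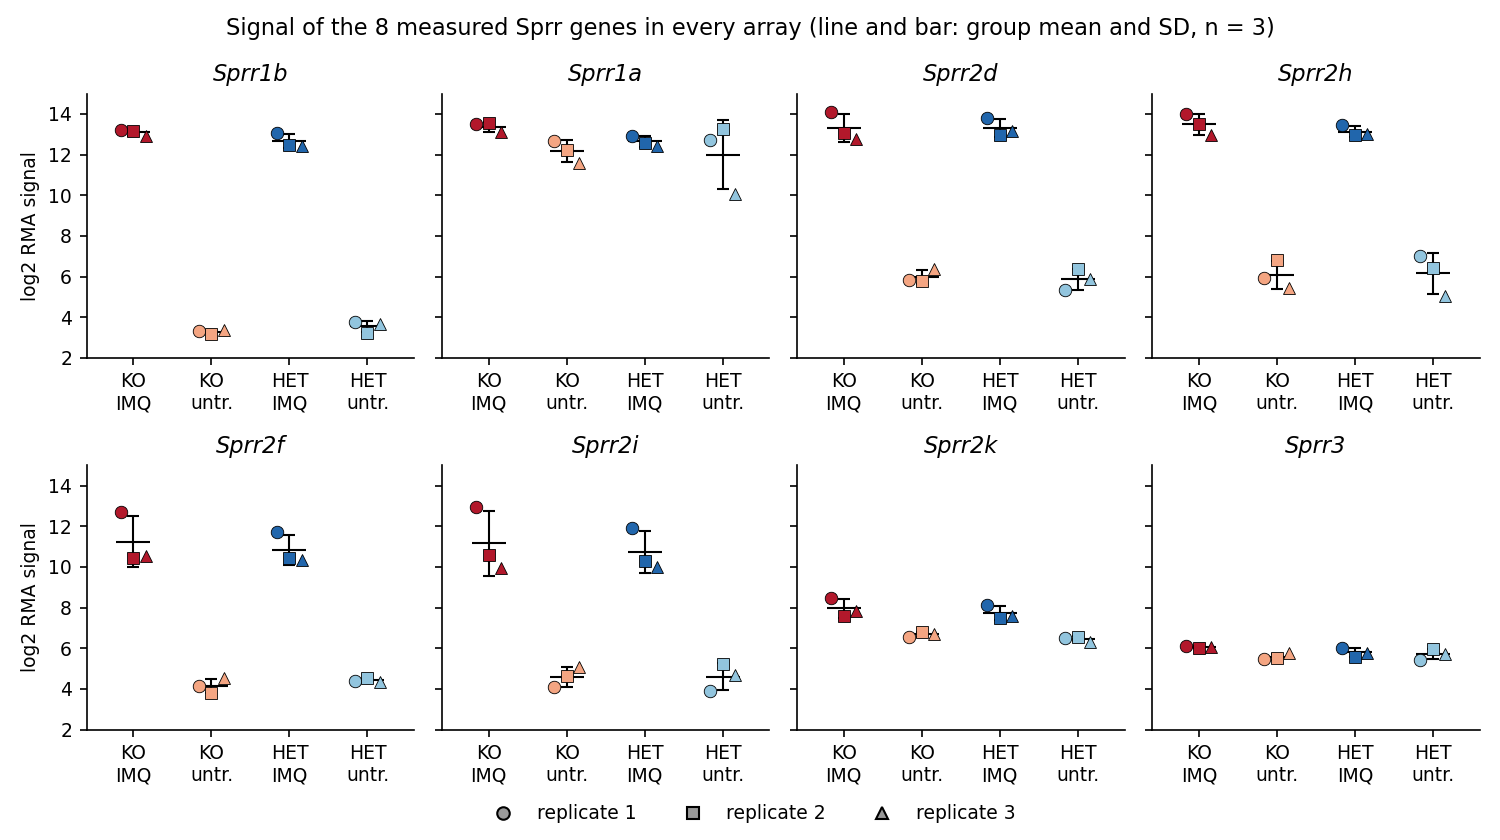
Log2 RMA signal (vertical axis) of the 8 measured Sprr genes in each of the 12 arrays, by group, with lines and bars for the group mean and SD (n = 3). Sprr1b, Sprr2d, Sprr2h, Sprr2f and Sprr2i separate IMQ-treated from untreated skin by over 9 and between 6 and 8 log2 units, Sprr2k by under 2, and untreated HET replicate 3 of Sprr1a lies at 10.06, below the other 11 arrays.

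**Figure D3:**
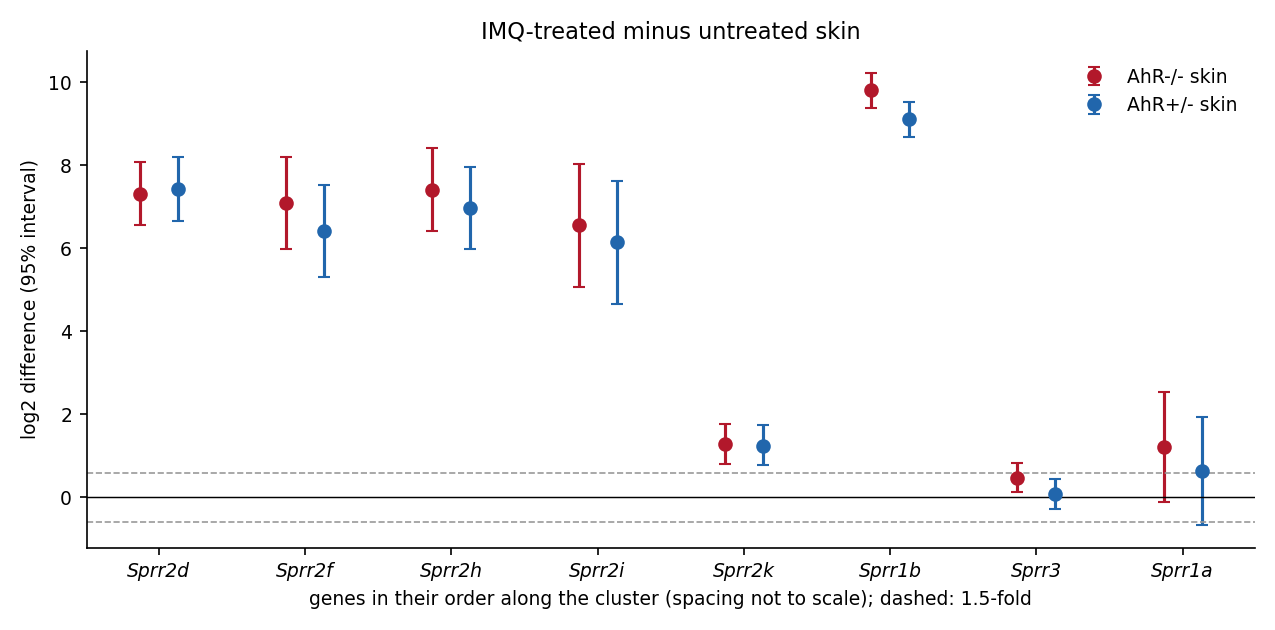
Log2 signal of IMQ-treated minus that of untreated skin (vertical axis, points, with 95% intervals) in AhR-/- and AhR+/- skin, the genes in their order along the cluster. The intervals of 6 genes lie above the dashed 1.5-fold line in both genotypes, while those of Sprr3 and Sprr1a reach below it.

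Along the chromosome the 6 called genes came first and Sprr3 and Sprr1a, the last of the row, were the 2 not called. Since the untreated signals of several of them were low, the sizes of their fold changes are not compared along the row.

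The second question was whether AhR deficiency alters these genes. In IMQ-treated skin 0 of 8 were called between AhR-/- and AhR+/- skin by limma, where 3.98% of all genes were called in either direction. An unadjusted p under 0.05 was seen for 1 of 8, against 3828 of all 18193 genes. The rank product called 0 of 8 as well. The log2 difference was above 0 for 7 of the 8 genes, with a median of 0.38, against 0.06 over all genes. This direction rested on KO IMQ replicate 1, without which 4 of the 8 were above 0 and Sprr2d (-0.38), Sprr2f (-0.33), Sprr2i (-0.49) and Sprr2k (-0.01) were below. Sprr1b had 13.21, 13.17 and 12.90 in KO IMQ skin, against 13.05, 12.48 and 12.43 in HET IMQ skin, so that the lowest KO array lay below the highest HET array. Its log2 difference was 0.44, with a 95% interval of 0.03 to 0.86 (limma adjusted p = 0.212). Sprr1a was the 1 gene whose KO IMQ arrays were all above the HET IMQ arrays, as for 18.0% of all genes, with 13.09 to 13.54 in KO against 12.41 to 12.93 in HET. Its log2 difference was 0.73, with a 95% interval of -0.58 to 2.04 (limma adjusted p = 0.515).

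Among the Sprr2 genes the difference in IMQ-treated skin was largest in Sprr2i, at 0.41 with a 95% interval of -1.07 to 1.9. It was 0.40 (-0.7 to 1.51) in Sprr2f, 0.36 (-0.63 to 1.35) in Sprr2h, and 0.25 (-0.24 to 0.74) in Sprr2k. In Sprr2d the group means were equal to within 0.01, with an interval of -0.76 to 0.76. These intervals leave room for differences of 1.5-fold in either direction in Sprr2d, Sprr2f, Sprr2h and Sprr2i, so that the arrays do not show the genotypes to be alike. Sprr3 had a difference of 0.26 (-0.1 to 0.62). Of the KO IMQ arrays, replicate 3 was the one with a low Gapdh 3' to 5' difference. Set alone against the HET IMQ arrays, it gave values below 0 in 4 of the 8 genes, with -0.52 in Sprr2d, -0.28 in Sprr2f, -0.15 in Sprr2h and -0.80 in Sprr2i, and 0.24 in Sprr1b.

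In untreated skin 0 of 8 genes were called between the genotypes by limma or by the rank product, where limma called 0.0055% of all genes. An unadjusted p under 0.05 was seen for 0 of 8, against 1180 of all 18193 genes. The KO and HET arrays overlapped for all 8 genes, while over all genes 5.03% were higher and 3.78% lower in KO without overlap. The log2 differences lay between -0.27 in Sprr2f and 0.22 in Sprr2k, with a median of -0.04, against 0.02 over all genes. Sprr1a had the second widest interval, -1.16 to 1.47, after Sprr2i with -1.48 to 1.48.

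The response to IMQ in AhR-/- skin minus that in AhR+/- skin was called for 0 of 8 genes by limma, where 1.32% of all genes were called. An unadjusted p under 0.05 was seen for 1 of 8, against 3185 of all 18193 genes. The 1 of 8 was Sprr1b, with 0.70 (95% interval 0.11 to 1.29, limma adjusted p = 0.206). This value was made up of a KO minus HET difference of 0.44 in IMQ-treated and of -0.26 in untreated skin. With array weights the difference was 0.95 and was called (limma adjusted p = 0.0266), where this setting called 2096 of all genes, against 241 without weights. In the other genes it lay between -0.11 in Sprr2d and 0.68 in Sprr2f, with intervals that all held 0.

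**Figure D4:**
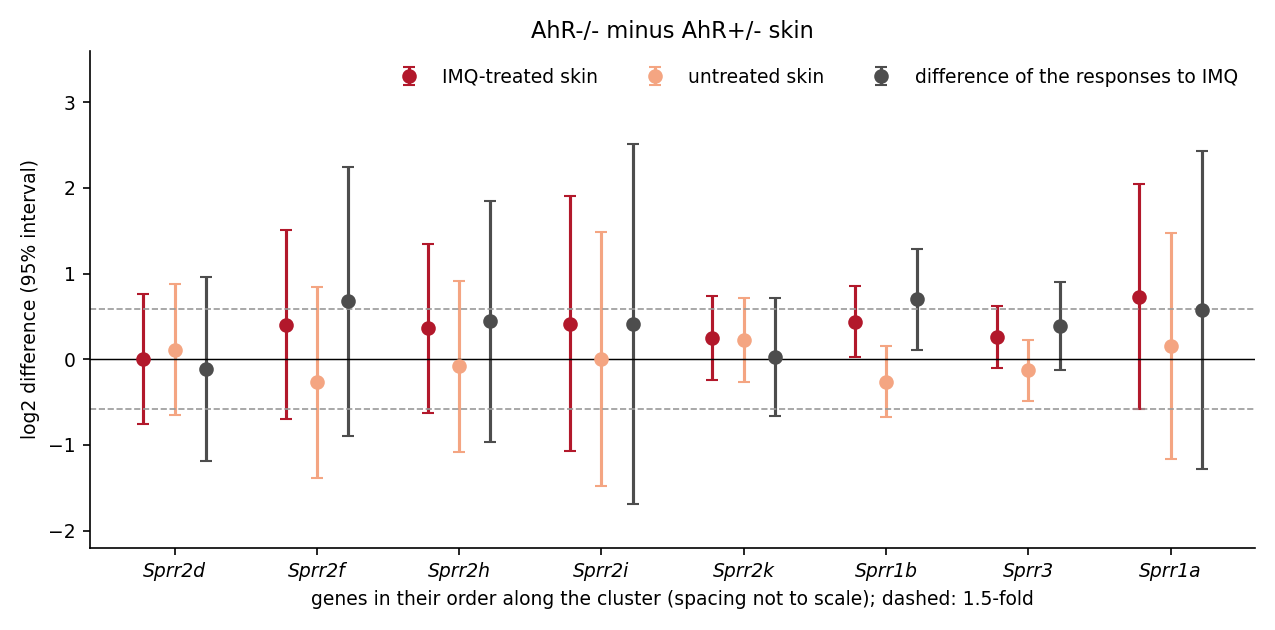
Log2 difference between AhR-/- and AhR+/- skin (vertical axis, points, with 95% intervals) in IMQ-treated skin, in untreated skin, and as the difference of the responses to IMQ. The interval of Sprr1b lies above 0 in IMQ-treated skin (0.03 to 0.86) and for the difference of responses (0.11 to 1.29), and every other interval holds 0.

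Arrays of the same treated group differed, and 1 of them stood highest for nearly every gene. In HET IMQ skin replicate 1 had the highest signal for 8 of 8 genes. In KO IMQ skin replicate 1 was highest for 7 of 8, and replicate 2 for Sprr1a. In KO, replicate 1 lay 1.80 above the group mean in Sprr2i, 1.46 in Sprr2f and 0.77 in Sprr2d, and in HET the same genes lay 1.17, 0.88 and 0.51 above. Sprr1b, with the highest fold change, varied little among the KO arrays, by 0.31 in all. The genes are measured in the same RNA and the Sprr2 probes may share targets, so this is not 8 independent observations. HET IMQ replicate 1 also stood apart in the suprabasal keratins, with a mean of 9.44 against 11.02 and 11.18 in the other HET IMQ arrays, and in 15 late cornified envelope genes, with 9.06 against 10.6 and 10.89. In KO the suprabasal keratin means were 8.13, 7.97 and 8.59 in replicates 1, 2 and 3. The part of these in the high Sprr signals of replicate 1 was not tested.

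**Figure D5:**
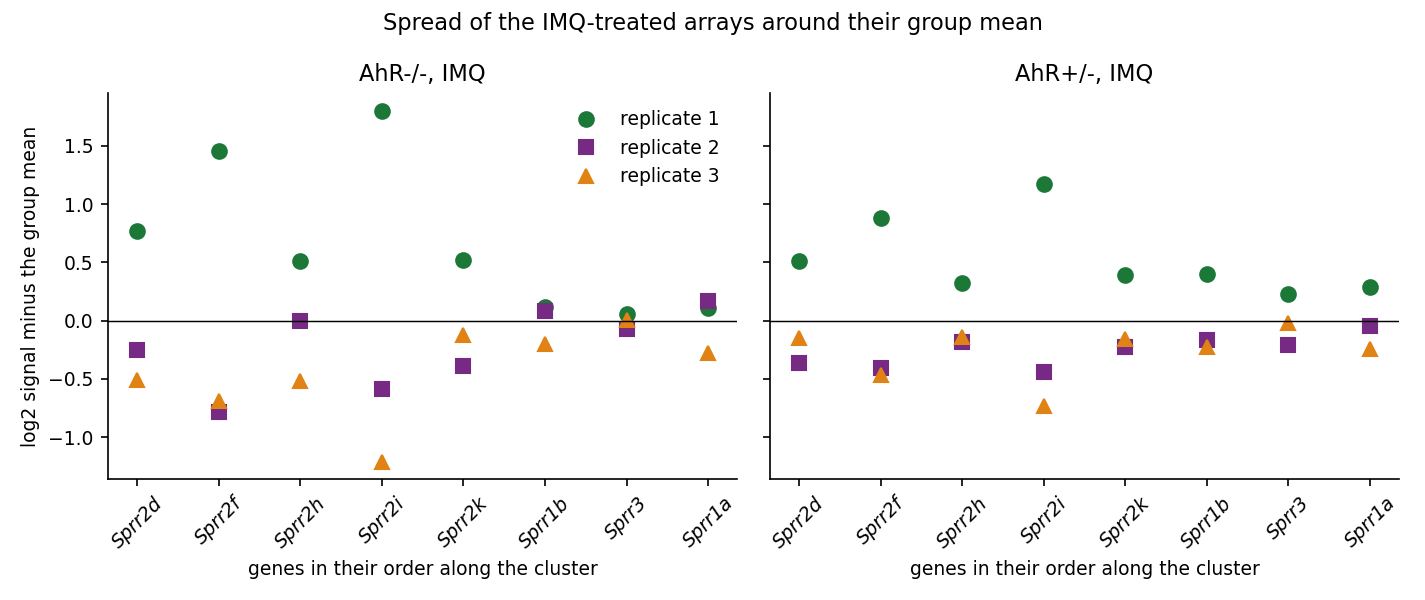
Log2 signal minus the group mean (vertical axis) of the 8 measured Sprr genes in the 3 KO IMQ (left) and 3 HET IMQ arrays (right). Replicate 1 is above the mean for every gene in both groups, by up to 1.80 in KO and 1.17 in HET, both in Sprr2i.

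Other genes of the cornified envelope did not share one direction with the Sprr genes. Of 18 listed envelope precursors 16 were measured, and in KO after IMQ 1 was called higher and 6 lower, with a median of -0.56. The one called higher was Cnfn, encoding cornifelin, with a log2 difference of 2.75 ± 0.37 (SE, limma adjusted p = 0.000242). Among those called lower were Lor, encoding loricrin, the main envelope protein that SPRR proteins are linked to, with -3.58 ± 0.59, Scel, encoding sciellin, with -2.63 ± 0.21, and Kprp, encoding a keratinocyte proline-rich protein, with -2.37 ± 0.5 (SE, limma adjusted p = 0.000913, 5.6e-06 and 0.00396). In HET 2 were called higher and 2 lower. Here Cnfn and Rptn, encoding repetin, were higher by 1.97 and 2.69, Tchh, a protein of the hair follicle, and Scel were lower, at -3.41 and -1.14, and Lor, with -1.27 (limma adjusted p = 0.207), was not called. In IMQ-treated skin 3 of the 16 were lower in KO than in HET, with log2 differences of -3.01 in Flg, the precursor of filaggrin, -1.23 in Scel and -0.99 in Ppl, encoding periplakin (limma adjusted p = 0.0475, 0.008 and 0.0138). The mean of the 16 genes was 9.89 to 10.12 in KO IMQ arrays, against 10.53 to 11.19 in HET IMQ arrays. KO IMQ replicates 1 and 2 were the arrays with the Gapdh 3' to 5' differences of 1.17 and 1.52. With that difference as a covariate 27 of all genes were called higher and 0 lower in KO IMQ skin, so that the calls of Flg, Scel and Ppl were lost, at -1.57, -0.99 and -0.75 (limma adjusted p = 0.878, 0.33 and 0.447). The same arrays enter the KO response to IMQ. There the covariate changed the calls over all genes from 1928 to 1007 higher and from 2202 to 1219 lower. In HET the changes were from 949 to 892 higher and from 697 to 597 lower. Which listed genes kept their call after IMQ under the covariate was not examined, here and below.

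The late cornified envelope genes, another family of the same complex, split by subgroup. Of 21 listed genes 15 were measured, and in KO 4 were called higher and 7 lower. The 4 were all Lce3 genes, led by Lce3a with 5.64, Lce3f with 5.54 and Lce3c with 4.06, and the 7 were all Lce1 genes, led by Lce1m with -6.81 (limma adjusted p = 7.32e-07). In HET 5 were higher, the same 4 Lce3 genes and 1 Lce1 gene, and 1, Lce1m, was lower, at -4.14. Of the 4 transglutaminases, the enzymes that cross-link SPRR proteins, Tgm1 and Tgm3 were called higher in both genotypes, by 1.86 and 2.65 in KO and by 1.42 and 2.83 in HET. Tgm5 was called lower in KO, at -1.28. Of 4 keratins of hyperproliferative epidermis 4 were higher in KO and 3 in HET, led by Krt6b with 9.66 in KO and 9.55 in HET. Of 4 suprabasal keratins 0 were higher in either genotype, while 3 were called lower in KO and 2 in HET. Between the genotypes in IMQ-treated skin, 3 of the 4 suprabasal keratins were called lower in KO than in HET, with -3.98 in Krt77, -2.79 in Krt1 and -2.71 in Krt10, as was Lce1m with -2.51, and Tgm2 was called higher with 1.48. With the Gapdh covariate none of these 5 was called, and their differences were -3.81, -2.40, -2.24, -2.73 and 1.39 (limma adjusted p = 0.156, 0.278, 0.289, 0.16 and 0.37).

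Of 14 transcription factors described at SPRR promoters, all measured, 6 were called higher and 1 lower in KO, and 4 higher in HET. The AP-1 genes Fosl1 and Junb were higher by 3.22 and 1.93 in KO and by 2.26 and 1.04 in HET. Jun, Fos, Fosb and Fosl2, AP-1 genes of the same list, were called in neither genotype. The epithelial ETS factor Ehf was higher by 1.51 in KO and 2.67 in HET, and Nfe2l2, encoding the stress-response factor NRF2, by 1.03 in KO and 0.76 in HET. Jun, Fos, Fosb, Fosl2, Jund and Pou2f3 are named outside the rule, after their values were seen. Jund, the 1 gene called lower in KO, had -0.97. Pou2f3, an epidermal POU factor of the class that binds octamers, had log2 differences of -0.55 in KO and 0.04 in HET (limma adjusted p = 0.0788 and 0.936) and was not called. None of the 14 was called between KO and HET in IMQ-treated skin. The largest differences there were 0.98 ± 0.31 in Junb and 0.63 ± 0.31 in Fosl1, both higher in KO (SE, limma adjusted p = 0.0931 and 0.269). Markers of other cells moved with IMQ as well. Of 8 measured neutrophil genes 5 were called higher in KO and 3 in HET, and their mean was 7.72 to 7.93 in KO IMQ arrays, against 5.42 to 5.72 in untreated KO arrays, and 6.54 to 6.97 in HET IMQ arrays, against 5.24 to 5.80 in untreated HET arrays. Their median log2 difference was 1.45 in KO and 0.04 in HET. The HET mean rested largely on Stfa2l1, with 6.98, while Cxcr2 and Csf3r, also called, had 1.48 and 1.17. Elane, Ngp and Ltf were below 0 in HET and were not called. Between the genotypes in IMQ-treated skin 3 of the 8, Csf3r, Ngp and Cxcr2, were called higher in KO, and 1 of 5 macrophage genes, Adgre1, lower. The log2 differences of Csf3r, Ngp, Cxcr2 and Adgre1 were 2.3, 2.3, 1.9 and -1.6. None of these 4 was called with the Gapdh covariate, where they were 2.13, 1.9, 2.23 and -1.19 (limma adjusted p = 0.12, 0.0935, 0.0594 and 0.449). Of 4 measured T cell genes 3 were called lower after IMQ in KO, Cd3g with -2.40, Cd2 with -1.14 and Cd3d with -1.0, and 1 in HET, Cd3g with -1.51. Their mean was 5.81 to 6.08 in KO IMQ arrays, against 6.99 to 7.29 in untreated KO arrays, and 5.91 to 6.59 in HET IMQ arrays, against 6.45 to 7.41 in untreated HET arrays. Of the 13 hair follicle genes 0 were called in KO and 4 were called lower in HET, led by Krt34 with -3.79, where untreated HET replicate 2 was the array with the high mean. Of 5 fibroblast genes 1 was called higher and 2 lower in KO, and 2 lower in HET, the collagen genes Col1a1 and Col1a2 being lower in both. Macrophage, muscle and adipocyte lists of 5, 7 and 4 measured genes had 1, 2 and 1 called lower in KO, and 1 called higher, 0 called and 1 called lower in HET. No marker is listed at 0. The part of infiltrating cells, of hair and of the make-up of the epidermis in the Sprr signals was not tested.

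The genes whose signal followed the mean profile of the 8 Sprr genes most closely over the 12 arrays were Pla2g4e, encoding an epidermal phospholipase, Urah, Slc10a6, Stfa2l1 and Chil1. That profile is a mean of centred values that were not scaled. Sprr genes with large differences after IMQ therefore weigh most in it, and Sprr1a, Sprr2k and Sprr3 weigh little. Pearson's r with the mean Sprr profile was 0.998 in Pla2g4e and 0.995 to 0.992 in the other 4 genes. The arrays fall into 6 treated and 6 untreated ones, so these coefficients mostly describe that split, and they are given without a test. The closest gene was Pla2g4e for Sprr2d (r = 0.995) and Sprr2f (0.993), S100a9, a subunit of calprotectin, for Sprr1b (0.996), Chil1 for Sprr2h (0.993) and Defb3, encoding a beta-defensin, for Sprr2i (0.993). For Sprr2k it was Cyrib (0.98), for Sprr3 Musk (0.968) and for Sprr1a Aldh18a1 (0.902).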

How the data were processed

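Whole-skin RNA of AhR-/- and AhR+/- mice, IMQ-treated or untreated, was measured on 12 Affymetrix arrays, 3 per group, grouped by their labels. The values deposited by the authors are log2 signals per probe set from RMA, as run in affy for R, with no version given in the sources used here. The method corrects background, normalizes arrays by quantiles and summarizes probes, which narrows differences of dim probes. No raw intensities were used, and the number of arrays limits the precision. Of 45101 probe sets, 64 controls, 932 sets paired with several genes and 9160 without a symbol were left out, and the other 34945 stood for 18193 genes, the set with the highest mean being used for each. Group means were fitted with limma 3.58.1 in R 4.3.3 (8 residual degrees of freedom), with 5 contrasts and Benjamini-Hochberg adjustment over all genes. Calls needed a p below 0.05 after adjustment and a change of 1.5-fold or more. P-values of the main fit set a difference of group means against the spread of arrays within groups. That spread is pooled over the 4 groups and moderated by limma across genes. The fit and the rank product (100 permutations over 9 pairwise ratios, estimated share of false positives under 0.01) were tested on simulated data. Motifs and identities were computed in Python 3.11.15 from RefSeq promoters.

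The Sprr genes and the gene lists were chosen with earlier results of these data known. All Sprr genes are named, and from each list up to 4 called genes per comparison by size, or 2 where none was called; by likeness, the 5 genes closest to the mean profile and 1 per Sprr gene. Gene names are those of the platform annotation. Alternatives were no fold minimum, a stricter threshold, other choices of probe set, a filter on dim genes, 2 normalizations, other variance and weight models, the groups compared alone, a replicate block, a Gapdh covariate, fewer arrays and the rank product. A fit over all 45037 probe sets but the controls was added after seeing the data.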

Additional observations from a re-analysis of the deposited data

How the results depend on the processing

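For the called genes, Sprr1b, Sprr2d, Sprr2h, Sprr2f and Sprr2i kept their direction and call in both genotypes under all 27 settings tried. Of 1064 values of single genes, 1007 kept direction and side of the threshold, 50 changed sign, 5 became called and 2, those of Sprr2k by the rank product, lost the call. No called value changed sign. The number of Sprr genes called after IMQ was 5 to 7 in KO and 5 to 6 in HET, and leaving out 1 array gave 6 to 7 and 6 to 6. It was 0 between the genotypes in IMQ-treated and in untreated skin under all settings, and for the difference of responses it was 1 with array weights (Sprr1b, 0.95) and 0 otherwise. Sprr3 was called in KO with no fold minimum (0.48, adjusted p = 0.0459).

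The values that changed sign were all of uncalled genes, and the cause was not tested. Between KO and HET in IMQ-treated skin, Sprr2d was 0.01 after median centring and after a second quantile normalization and 0.43 with array weights, and Sprr2i was -0.32 with the Gapdh covariate. With KO IMQ replicate 3 alone, Sprr2f was -0.28, Sprr2h -0.15 and Sprr2i -0.80. In untreated skin, array weights gave -0.04 in Sprr2d and 0.84 in Sprr2h, and the Gapdh covariate 0.04 in Sprr2i. For the difference of responses, array weights gave -0.30 in Sprr1a, 0.47 in Sprr2d and -0.20 in Sprr2h, the Gapdh covariate gave -0.36 in Sprr2i, and KO IMQ replicate 3 alone gave -0.01 in Sprr2f, -0.07 in Sprr2h, -0.79 in Sprr2i and -0.09 in Sprr2k. Leaving out 1 array gave these ranges. After IMQ in HET they were -0.33 to 1.25 in Sprr1a and -0.04 to 0.22 in Sprr3. Between KO and HET in IMQ-treated skin they were -0.38 to 0.26 in Sprr2d, -0.33 to 0.84 in Sprr2f, -0.49 to 1.02 in Sprr2i and -0.01 to 0.45 in Sprr2k. The lowest values of these 4 genes are those without KO IMQ replicate 1. In untreated skin they were -0.81 to 0.77 in Sprr1a, -0.16 to 0.37 in Sprr2d, -0.64 to 0.35 in Sprr2h and -0.35 to 0.31 in Sprr2i. For the difference of responses they were -0.04 to 1.54 in Sprr1a, -0.5 to 0.16 in Sprr2d, -0.06 to 1.11 in Sprr2f, -0.49 to 1.02 in Sprr2i and -0.23 to 0.23 in Sprr2k.

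Counts over all genes depended more on the setting. After IMQ in KO 4130 of 18193 genes were called, and 381 by the rank product to 5164 with array weights. After IMQ in HET 1646 were called, and 230 to 2563 under the same settings. The fit of all 45037 probe sets but the controls called 7560 probe sets in KO and 3658 in HET, which are not counts of genes. Between KO and HET in IMQ-treated skin 724 were called, 27 with the Gapdh covariate, all of them higher in KO, to 2019 with array weights, and 241 showed differing responses, 12 to 2096 under those settings. In untreated skin 1 was called, and 0 to 206, the highest without HET untreated replicate 1. The rank product and the fit of the compared groups alone give no difference of responses and were not run for it.

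The replicate numbers were not used as pairs in the main fit. Deviations from the group means correlated between -0.1837 and 0.316 in the 18 pairs of the same number, of which 7 were over 0.1. In the 36 pairs of different number they correlated between -0.3622 and 0.2432, and 6 were over 0.1. Whether the numbers stand for a pairing is not settled by these values. With the replicate number as a block, 6, 6, 0, 0 and 0 Sprr genes were called in the 5 comparisons, and 4145, 1659, 684, 3 and 221 of all genes.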

Other observations

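The arrays hold Sprr sequences outside the 8 measured genes. Sprr2j-ps, a transcribed pseudogene between Sprr2i and Sprr2k, was called higher after IMQ by a log2 difference of 4.77 in AhR-/- skin (limma adjusted p = 0.00019) and by 3.96 in AhR+/- skin (limma adjusted p = 0.00189). Its signal was 8.75 to 11.29 in KO IMQ skin, against 4.96 to 5.07 in untreated KO skin, and 8.19 to 10.56 in HET IMQ skin, against 4.75 to 5.64 in untreated HET skin.

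A further 3 probe sets are each paired by the annotation with several Sprr2 genes outside the 10 considered, so no gene is named for them. They were fitted after their values were seen, with all 45037 probe sets but the controls. All 3 were called higher after IMQ, by 1.82, 3.44 and 2.93 in AhR-/- skin and by 3.18, 4.45 and 4.62 in AhR+/- skin. In IMQ-treated skin their log2 differences between KO and HET were -1.35 (95% interval -2.36 to -0.35), -0.49 (-1.13 to 0.16) and -1.01 (-1.66 to -0.36), and none was called (limma adjusted p = 0.139, 0.401 and 0.0941). The 8 measured genes had differences from 0.00 to 0.73 in the same fit. The order of the KO IMQ arrays was turned round as well. The third of these sets had 11.92, 12.08 and 13.01 in KO IMQ replicates 1, 2 and 3, against 13.69, 13.18 and 13.19 in HET IMQ skin, so that KO replicate 1, the highest array for 7 of 8 Sprr genes, was the lowest here, while HET replicate 1 was the highest in both. The first set had 5.73, 6.40 and 7.50 in KO IMQ skin, against 8.33, 7.48 and 7.89 in HET IMQ skin, and the second 12.70, 13.03 and 13.49 in KO IMQ skin, against 13.94, 13.36 and 13.39 in HET IMQ skin. The difference of the responses to IMQ, KO minus HET, was -1.69 in the third set (95% interval -2.61 to -0.77, limma adjusted p = 0.0975). KO IMQ replicate 3, with the low Gapdh 3' to 5' difference, lay closest to the HET arrays in all 3 sets, and the part of RNA integrity in this pattern was not tested.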
